A study of Mus musculus with 44 samples.

Results

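Cdx2, Gata3, Eomes, Elf5, Tead4 and Tfap2c encode transcription factors of the trophectoderm, the outer layer of the mouse blastocyst, and Krt8 and Krt18 encode the keratin pair of that epithelium. Chromatin accessibility at these 8 loci was taken from an ATAC-seq table of 152393 peaks, each 200 bp wide, in 44 libraries of mouse embryos. A peak was counted as a member where it overlapped the gene body or the 20 kb on either side on the mm10 (GRCm38) genome, with GENCODE vM21 gene models. This gave 144 peaks, with 13 at Cdx2, 18 at Gata3, 15 at Eomes, 18 at Elf5, 36 at Tead4, 17 at Tfap2c, 19 at Krt8 and 14 at Krt18, of which 6 lie in the windows of both keratin genes and were counted once. The rule used positions alone.

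The libraries came from 2 mouse lines. In each, Zp3-Cre, which is active in growing oocytes, had removed the maternal floxed allele, of Pou5f1 (the gene of Oct4) in one line and of Sox2 in the other. Control embryos (Ctrl) therefore lacked the maternal copy and kept a wild-type paternal allele, whereas knockout embryos (Pou5f1-KO, Sox2-KO) had no functional copy and were recognised by a fluorescent reporter in the paternal null allele, mKO2 for Pou5f1 and EGFP for Sox2. Pou5f1 Ctrl and Pou5f1-KO were collected as whole morulae (E2.75), whole late morulae (E3.25), early ICMs (E3.75) and late ICMs (E4.5). For Sox2 the groups analysed were early and late ICMs, Ctrl and KO, and Sox2-KO morulae were not analysed here. There were 3 libraries in each morula group and 4 in each ICM group, each made from a pool of 20 to 40 embryos. ICMs came from embryos cultured from E2.5 with the MEK inhibitor PD0325901 at 1 μM, which keeps primitive endoderm from forming, and were freed of the trophectoderm by immunosurgery. Morulae therefore include outer cells and ICMs do not, and the step from late morula to early ICM is at once a step in stage, in tissue and in inhibitor treatment, which cannot be told apart. In such bulk samples fewer cells of a type and less signal per cell cannot be told apart either. Nothing in the labels says that replicate pools came from separate collections, so p-values measure the spread between these pools.

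In the morula, outer cells polarise and silence Hippo signalling, so that Yap enters the nucleus and acts with Tead4 to switch on Cdx2, while Gata3 is induced in parallel. Tfap2c is present from earlier stages in all cells and is needed for epithelial features of the outer cells. Eomes and Elf5 act with Cdx2 later, in the trophoblast progenitors that become trophoblast stem cells. Oct4 and Cdx2 are known to repress each other as inner and outer fates separate, and Oct4 and Sox2 bind DNA as a pair at enhancers of the inner cells. Keratins 8 and 18 polymerise with one another into the filaments of the trophectoderm.

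The windows below are those on which the results turn, printed 5′ to 3′ from the plus strand of GRCm38. Each was searched on both strands, without mismatch, for short words of the factor families above and of KLF factors. The words were GGAATG for the Tead factors, AGATAA for the Gata factors, GCCNNNGGC for the Tfap2 factors, GGTGTGA for the T-box factors, CAATAAA for the Cdx factors, GGGNGTGG for the Klf factors, ATGCAAAT for Oct4 and CATTGT for Sox2, and they are called the TEAD, GATA, TFAP2, T-box, CDX, KLF, OCT and SOX words. A composite word, the SOX word, 1 free base and the OCT word, 15 letters with up to 3 mismatches, was searched too. Capitals mark these matches, and a word on the minus strand appears as its reverse complement. The first window lies 27833 bp past the Tfap2c 5′ end and was lower in both knockouts, with a KLF word and a minus-strand CDX word. The next 2 lie in a Cdx2 intron and were lower in Pou5f1-KO ICMs. One holds no word, and the other a minus-strand SOX word and, apart from it, a minus-strand composite word.
Tfap2c chr2:172577327-172577526: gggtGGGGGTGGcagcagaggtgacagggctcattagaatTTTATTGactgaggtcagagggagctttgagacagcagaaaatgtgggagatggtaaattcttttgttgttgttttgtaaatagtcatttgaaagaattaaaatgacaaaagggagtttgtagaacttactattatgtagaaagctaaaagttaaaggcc
Cdx2 chr5:147304421-147304620: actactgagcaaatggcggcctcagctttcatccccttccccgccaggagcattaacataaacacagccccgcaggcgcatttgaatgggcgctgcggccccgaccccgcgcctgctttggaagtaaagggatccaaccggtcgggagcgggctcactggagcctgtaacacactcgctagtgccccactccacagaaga
Cdx2 chr5:147304939-147305138: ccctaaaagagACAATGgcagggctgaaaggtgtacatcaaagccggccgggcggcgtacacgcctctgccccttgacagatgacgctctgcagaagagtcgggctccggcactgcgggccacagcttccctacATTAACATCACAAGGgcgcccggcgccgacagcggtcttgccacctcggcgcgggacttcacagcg

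An intronic Elf5 window with a TFAP2 word was lower in Pou5f1-KO late morulae, and a window past Eomes with a pair of minus-strand GATA words was lower in Sox2-KO ICMs. The Gata3 window, intronic with a pair of plus-strand GATA words, was higher in Pou5f1-KO ICMs, and the Tead4 window, intronic with a TEAD word on each strand, was higher in late ICMs of both knockouts.
Elf5 chr2:103434818-103435017: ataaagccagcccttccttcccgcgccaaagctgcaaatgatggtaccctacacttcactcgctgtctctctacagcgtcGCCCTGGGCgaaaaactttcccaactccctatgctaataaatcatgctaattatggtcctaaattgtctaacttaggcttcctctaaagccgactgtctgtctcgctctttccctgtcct
Eomes chr9:118504003-118504202: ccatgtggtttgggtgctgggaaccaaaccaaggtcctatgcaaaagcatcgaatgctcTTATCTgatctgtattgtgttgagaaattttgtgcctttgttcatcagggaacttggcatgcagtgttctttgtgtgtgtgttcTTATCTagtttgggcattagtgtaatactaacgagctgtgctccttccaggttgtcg
Gata3 chr2:9860236-9860435: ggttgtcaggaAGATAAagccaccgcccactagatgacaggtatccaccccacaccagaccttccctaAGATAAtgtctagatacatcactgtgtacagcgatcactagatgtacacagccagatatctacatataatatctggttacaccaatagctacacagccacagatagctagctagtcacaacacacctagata
Tead4 chr6:128225611-128225810: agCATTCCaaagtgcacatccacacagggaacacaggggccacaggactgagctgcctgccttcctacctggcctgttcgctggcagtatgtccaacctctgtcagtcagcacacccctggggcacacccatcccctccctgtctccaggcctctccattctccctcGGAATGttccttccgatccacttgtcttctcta

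The keratin windows are an intergenic peak shared by the windows of both genes, with a TEAD, a GATA and a TFAP2 word, and a peak 2395 bp before the Krt18 5′ end with a TEAD and a GATA word. Both were higher in Pou5f1-KO late ICMs.
Krt8 and Krt18 chr15:102016157-102016356: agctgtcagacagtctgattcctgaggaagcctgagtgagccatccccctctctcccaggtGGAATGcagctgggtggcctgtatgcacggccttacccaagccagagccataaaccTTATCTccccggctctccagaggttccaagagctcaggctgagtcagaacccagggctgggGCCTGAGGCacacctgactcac
Krt18 chr15:102025686-102025885: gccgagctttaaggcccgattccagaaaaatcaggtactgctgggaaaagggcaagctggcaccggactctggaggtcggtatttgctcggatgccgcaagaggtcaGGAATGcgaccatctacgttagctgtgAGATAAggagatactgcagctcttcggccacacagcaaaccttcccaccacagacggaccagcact

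The share of windows with a word, over the 144 members and over all 152393 windows, was 20.1% and 18.9% for TEAD, 13.9% and 11% for TFAP2, 3.47% and 3.58% for CDX and 21.5% and 20.6% for KLF. It was 11.8% and 17.5% for GATA, 2.08% and 5.78% for T-box, 0.694% and 2.39% for OCT, 8.33% and 10.9% for SOX and 2.08% and 3.11% for the composite word. The median GC content was 52% in the members and 50% in all windows. These shares are descriptions without a test, a match is not a bound site, and no match says only that these letters are not in this window.

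Values are rlog, a regularised log2 count scale computed by the authors, so a difference of 1 is a change of accessibility by a factor of about 2, shrunk for weak peaks. Library medians ranged from 2.35 to 2.63, and libraries of one group correlated with r from 0.762 to 0.908 over all peaks. Knockout and control, and stages, were compared with limma's moderated test on all peaks and all 44 libraries, and a peak was called at a Benjamini-Hochberg adjusted p under 0.05 over the 152393 peaks. All adjusted p-values below are from this fit unless an alternative is named, and SE is its standard error. An alternative that also required a difference of at least 1 in size drops, by construction, the calls printed with a smaller difference. As a check of the labels, the Sox2 start site fell by 1.54 (SE 0.40, adjusted p = 0.0127) in Sox2-KO early ICMs, and in late ICMs it fell by 2.26 (SE 0.40, adjusted p = 1.01e-05). It was also called lower in Pou5f1-KO late ICMs, at -1.22 (adjusted p = 0.0191), so a fall there is not particular to Sox2-KO. The Pou5f1 start site was called lower in Pou5f1-KO early ICMs, at -1.13 (adjusted p = 0.0152), but not at the other stages, where it differed by -0.03, 0.37 and 0.06. Accessibility of a start site does not measure the deletion itself.

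The tissue labels were checked at start-site peaks of marker genes. Of 7 epiblast start sites, among them those of Pou5f1 and Sox2 themselves, 6 were called higher in Pou5f1 Ctrl early ICMs than in late morulae. The mean rlog of these 7 peaks was 3.39 to 3.93 in the 3 Pou5f1 Ctrl late morulae and 4.97 to 5.12 in the 4 early ICMs. In Pou5f1-KO early ICMs it was 3.77 to 4.85, below all controls, and 4 of the 7 were called lower (Nanog, Pou5f1, Utf1 and Prdm14), while Sox2 Ctrl and Sox2-KO early ICMs overlapped, at 4.19 to 4.74 and 3.78 to 4.30, and 1 was called lower (Sox2). In the late ICM it was 4.84 to 5.08 in Pou5f1 Ctrl and 3.88 to 4.09 in Pou5f1-KO, and 4.58 to 5.18 in Sox2 Ctrl and 3.83 to 4.19 in Sox2-KO. Without the peaks of the deleted genes the late ICM means of the other 5 were 5.08 to 5.18 in Pou5f1 Ctrl, 3.85 to 4.06 in Pou5f1-KO, 4.70 to 5.48 in Sox2 Ctrl and 4.11 to 4.60 in Sox2-KO, so the groups of each line stayed apart. None of the 3 primitive endoderm start sites with a peak (Gata6, Sox7 and Foxa2) was called in any comparison, and their mean rlog was between 2.34 and 3.15 in every late ICM library. A further list of 15 start sites of other trophectoderm genes had a mean rlog of 4.27 to 4.63 in Pou5f1 Ctrl late ICMs and 4.69 to 4.83 in Pou5f1-KO, and of 4.27 to 4.39 in Sox2 Ctrl and 4.62 to 4.78 in Sox2-KO, without overlap in either line. Pou5f1 Ctrl late morulae, at 4.24 to 4.58, and Pou5f1 Ctrl early ICMs, at 4.10 to 4.42, overlapped on this list. At that step 3 of its start sites were called lower (Tfap2a, Tspan8 and Dppa1) and 2 higher (Msx2 and Aqp3). These start sites therefore give no check that outer cells were removed. In early ICMs knockout and control overlapped on this list, with the highest Pou5f1 Ctrl library at 4.42 and the lowest Pou5f1-KO library at 4.26. In the Sox2 line the highest Ctrl library of the list was at 4.43 and the lowest KO library at 4.36. Its members went both ways in Pou5f1-KO late ICMs, where 3 of the 15 were called higher (Tfap2a, Tspan8 and Dppa1) and 2 lower (Atp1b1 and Aqp3), and in Sox2-KO late ICMs 2 were higher (Tspan8 and Dppa1) and none lower. These levels moved with the results on the members below, and their part in those results was not tested.

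The 144 members had a median rlog of 3.17, beside 2.44 for all peaks, and single members ranged from 0.56 to 6.13. Elf5 had the lowest median over its peaks, 2.29, and Krt18 the highest, 3.76. Of the members, 15 (10.4%) lay within 100 bp of an annotated start site, beside 10.6% of all peaks. Over the 15 comparisons made, 67 members (46.5%) were called in none, beside 48.4% of all peaks. In at least 1 of the 6 comparisons of a knockout with its control 43 members (29.9%) were called, beside 24.5% of all peaks.

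Control embryos were compared between stages first. From Pou5f1 Ctrl morula to late morula, 10 members were called higher and 1 lower (6.94% and 0.694%), beside 3.65% and 2.79% of all peaks. The median difference was 0.25 over the members and 0.08 over all peaks. At Krt8 5 of 19 peaks (26.3%) were higher and at Krt18 3 of 14 (21.4%), all 3 of them shared with Krt8, with medians of 0.65 and 0.81. At Cdx2, Gata3, Eomes and Elf5 1 peak each was higher, at Tead4 1 was higher and 1 lower, and at Tfap2c none was called. The count of 11 fell to 7 without Pou5f1 Ctrl morula 1 or 2, to 5, 6 and 7 without Pou5f1 Ctrl late morula 1, 2 and 3.

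From Pou5f1 Ctrl late morula to early ICM, 25 members were called lower and 24 higher (17.4% and 16.7%), beside 15% and 14.7% of all peaks, so the members moved about as often as other peaks. They divided by gene, however. At Krt8 9 of 19 peaks and at Krt18 7 of 14 were lower and none was higher, 2 of them shared, with medians of -0.80 and -1.17. At Tead4 11 of 36 peaks were higher and 3 lower, and at Tfap2c 6 of 17 were higher and 1 lower. Elf5 had 4 lower and 2 higher, Gata3 2 and 2, Cdx2 1 and 2, and Eomes none lower and 1 higher. Without Pou5f1 Ctrl late morula 1 the count of 49 was 31. In Pou5f1-KO embryos the same step gave 18 lower and 12 higher members, beside 10.2% and 8.33% of all peaks, with 8 lower at Krt8, 3 lower at Krt18 and 6 higher and 1 lower at Tead4. Its count of 30 was 19 without Pou5f1-KO late morula 1 and 18 without Pou5f1-KO late morula 3.

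Between early and late ICM no member was called in Pou5f1 Ctrl (0.18% lower and 0.0787% higher of all peaks), with 14 members (9.72%) at an unadjusted p under 0.05, beside 10.1% of all peaks. In Sox2 Ctrl none was called either (0.121% and 0.474% of all peaks), with 16 (11.1%) at an unadjusted p under 0.05, beside 11.6% of all peaks, and 1 called when Sox2 Ctrl late ICM 3 was left out.

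Loss of Pou5f1 was read at 4 stages and loss of Sox2 at 2. In Pou5f1-KO morulae 1 member was lower and none higher, beside 0.185% and 0.0518% of all peaks, with 16 members (11.1%) at an unadjusted p under 0.05, beside 8.24% of all peaks. In late morulae 3 were lower and none higher, beside 0.539% and 0.108%, and this count was 1 without Pou5f1 Ctrl late morula 2 or Pou5f1-KO late morula 3. In early ICMs 12 were lower and 3 higher (8.33% and 2.08%), beside 5.43% and 2.753% of all peaks, and 15 in all (10.4%), beside 8.18% in either direction. With the replicate number as a block, 20 members (13.9%) and 10.8% of all peaks were called there. In late ICMs 16 were lower and 16 higher (11.1% each), beside 10.1% and 8.19% of all peaks, and after quantile normalization the split was 13 lower and 20 higher. The median difference of the members was -0.14, -0.10, -0.21 and 0.02 over the 4 stages, beside -0.02, -0.01, -0.02 and -0.04 over all peaks.

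In Sox2-KO early ICMs 2 members were lower and 1 higher, beside 1.91% and 0.238% of all peaks, and after quantile normalization 2 and 2. The count of 3 was 6 without Sox2 Ctrl early ICM 1. In Sox2-KO late ICMs 4 were lower and 8 higher (2.78% and 5.56%), beside 4.88% and 2.71%, and after quantile normalization 4 and 4. The median difference there was 0.27 over the members, 103 of which were positive, and 0.01 over all peaks. The count of 12 was 7 without Sox2-KO late ICM 1, and 6 without Sox2-KO late ICM 2 or Sox2 Ctrl late ICM 4.

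**Figure D1:**
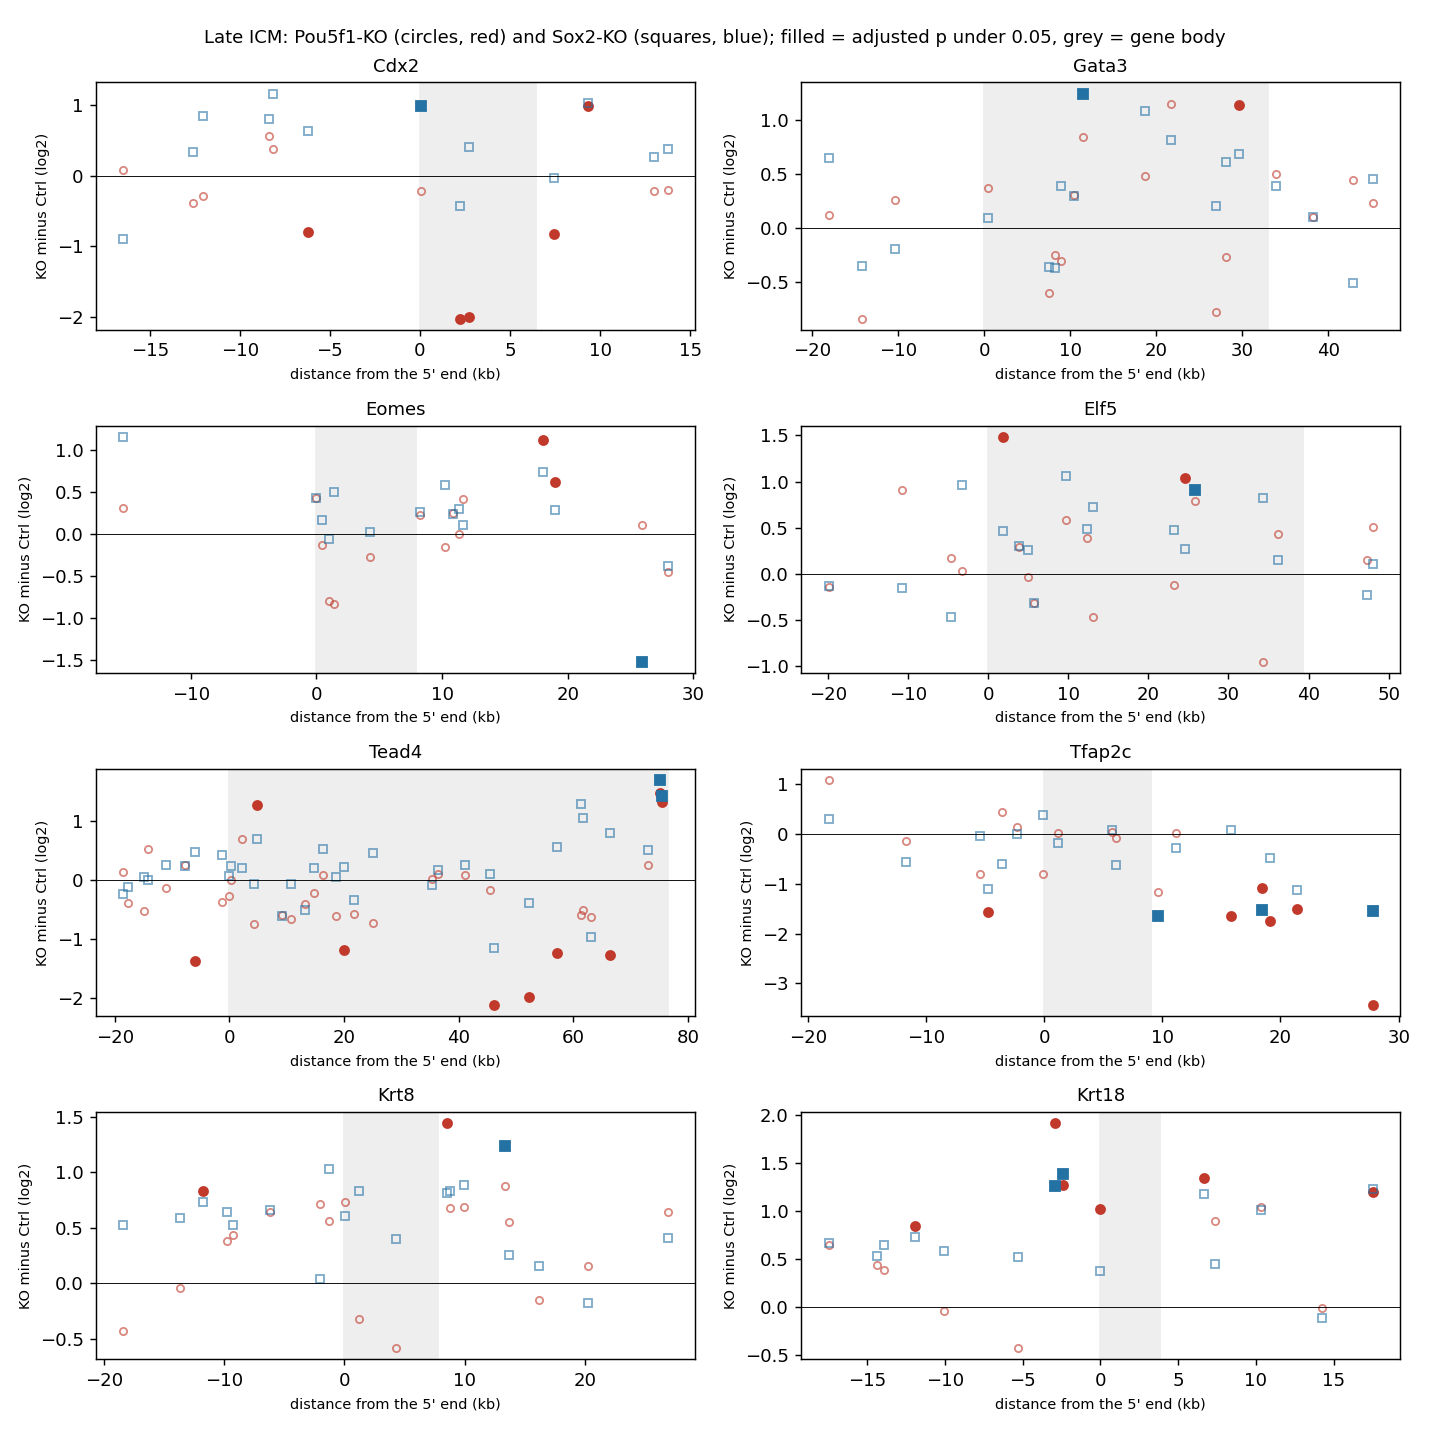
Knockout minus Ctrl in late ICMs (log2) for each peak of the 8 loci, against its distance from the gene's 5′ end in kb, with red circles for Pou5f1-KO, blue squares for Sox2-KO, filled symbols for adjusted p under 0.05 and the gene body in grey. The filled symbols lie below 0 at Tfap2c and above 0 at Krt8 and Krt18, and at Tead4 the filled circles lie on both sides of 0.

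Tfap2c, the AP-2γ factor, had the member with the strongest loss. The peak 27833 bp past its 5′ end, outside the gene, was the only one called lower in all 6 knockout comparisons. In Pou5f1 Ctrl it was 3.73, 4.38 and 3.97 in morulae and 2.49, 3.58 and 3.57 in late morulae, against 2.13, 1.60 and 0.90 and 1.12, 1.55 and 1.00 in Pou5f1-KO. In early ICMs it was 4.95, 4.63, 5.33 and 5.29 in Pou5f1 Ctrl and 2.57, 1.95, 1.76 and 1.83 in Pou5f1-KO, and in late ICMs 4.92, 4.80, 5.43 and 5.30 against 1.94, 1.03, 0.77 and 2.98. The knockout libraries lay below all control libraries at each of these stages. The differences were -2.49 (SE 0.45, adjusted p = 0.00155), -1.99 (SE 0.45, adjusted p = 0.00936), -3.02 (SE 0.39, adjusted p = 3.24e-09) and -3.43 (SE 0.39, adjusted p = 1.41e-11). The morula call was lost without Pou5f1-KO morula 3 (-2.17, adjusted p = 0.0731) and in a fit to only the groups compared (-2.49, 0.0511). The late morula call was lost without Pou5f1-KO late morula 1 (-1.94, adjusted p = 0.05) or 3 (-1.88, 0.0763), or without Pou5f1 Ctrl late morula 2 (-1.81, 0.103) or 3 (-1.81, 0.106).

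The same Tfap2c peak was 4.53, 5.32, 4.78 and 4.68 in Sox2 Ctrl early ICMs and 2.88, 3.72, 3.31 and 2.68 in Sox2-KO. In late ICMs it was 4.64, 4.96, 5.62 and 5.23 in Sox2 Ctrl and 3.64, 4.34, 2.66 and 3.59 in Sox2-KO. Here too the groups did not overlap, and the differences were -1.69 (SE 0.39, adjusted p = 0.00391) and -1.55 (SE 0.39, adjusted p = 0.00387). The late ICM call was lost without Sox2-KO late ICM 3 (-1.26, adjusted p = 0.0538). The Pou5f1-KO difference exceeded the Sox2-KO difference by -1.34 (SE 0.55, adjusted p = 0.278) in early ICMs and by -1.88 (SE 0.55, adjusted p = 0.0721) in late ICMs, neither of which was called. In Pou5f1 Ctrl the peak was 1.84 higher in early ICMs than in late morulae (SE 0.42, adjusted p = 0.000458), a comparison that shares its early ICM libraries with the knockout comparison.

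Further peaks of Tfap2c fell as well. Of its 17 peaks, 4 were lower and none higher in Pou5f1-KO early ICMs (23.5%, beside 5.43% of all peaks lower) and 6 were lower and none higher in late ICMs (35.3%, beside 10.1% lower), where the median of the locus was -0.80. The 6 lie 4776 bp before and 15819, 18474, 19097, 21379 and 27833 bp past the 5′ end. In Sox2-KO 1 was lower in early and 3 in late ICMs (5.88% and 17.6%, beside 1.91% and 4.88%), with a late median of -0.50. The peak at 18474 bp was called lower in both late ICMs. It was 3.56, 3.13, 3.999 and 3.11 in Pou5f1 Ctrl and 2.61, 2.32, 1.19 and 3.35 in Pou5f1-KO, where the groups overlapped, and 3.44, 4.28, 3.64 and 4.09 in Sox2 Ctrl and 2.68, 2.36, 2.12 and 2.15 in Sox2-KO, where they did not. The Sox2-KO difference was -1.53 (SE 0.40, adjusted p = 0.00614). The Pou5f1-KO difference of -1.08 (SE 0.40, adjusted p = 0.0459) was lost in a fit to only the groups compared (-1.08, 0.0636), after quantile normalization (-0.98, 0.0784) and without Pou5f1 Ctrl late ICM 1 (-1.04, 0.0858) or 3 (-0.90, 0.164) or Pou5f1-KO late ICM 1 (-1.16, 0.051), 2 (-1.06, 0.0803) or 3 (-0.69, 0.296).

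The Tfap2c start site itself was called in no knockout. It was 5.03, 5.43, 5.36 and 4.88 in Pou5f1 Ctrl late ICMs and 3.81, 4.31, 4.69 and 4.70 in Pou5f1-KO, lower in every library, at -0.80 (SE 0.36, adjusted p = 0.11). The Sox2-KO late ICM difference was 0.37 (SE 0.36, adjusted p = 0.659). It was 1.48 higher in Pou5f1 Ctrl early ICMs than in late morulae (SE 0.39, adjusted p = 0.00197). At 21379 bp, the Tfap2c peak with the smallest p at that step was 0.26, 0.97 and 0.36 in Pou5f1 Ctrl late morulae and 2.61, 3.72, 3.49 and 2.15 in early ICMs, with no overlap and a difference of 2.46 (SE 0.50, adjusted p = 8.56e-05). In late ICMs it was -1.505 (SE 0.47, adjusted p = 0.0138) in Pou5f1-KO, a call lost without Pou5f1-KO late ICM 1 (-1.10, 0.12) or Pou5f1 Ctrl late ICM 2 (-1.22, 0.0852) or 3 (-1.35, 0.0549).

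Tead4, the DNA-binding partner of Yap, has the largest number of member peaks, with calls in both directions. In Pou5f1-KO early ICMs 4 of its 36 peaks were lower and none higher (11.1%, beside 5.43% of all peaks lower). In late ICMs 6 were lower (16.7%, beside 10.1%) and 3 higher (8.33%, beside 8.19%), so the higher calls were near the share of all peaks. Sox2-KO had 2 higher (5.56%, beside 2.71%) and none lower in late ICMs. The intronic peak at chr6:128280803-128281002 was one of the 3 members lower in Pou5f1-KO late morulae. It was 4.70, 5.04 and 4.62 in Pou5f1 Ctrl late morulae and 3.60, 3.45 and 2.73 in Pou5f1-KO, and in late ICMs 4.45, 5.67, 5.72 and 5.80 against 4.02, 4.10, 4.20 and 4.54. The late morula groups did not overlap, and Pou5f1 Ctrl late ICM 1 lay below the highest knockout library. The differences were -1.52 (SE 0.34, adjusted p = 0.00709) and -1.20 (SE 0.29, adjusted p = 0.00127), and that of the early ICM, -0.46 (SE 0.29, adjusted p = 0.387), was not called. The late morula call was lost without Pou5f1 Ctrl late morula 2 (-1.40, adjusted p = 0.0847) or Pou5f1-KO late morula 3 (-1.26, 0.15).

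Near the 3′ end of Tead4, in an intron, a peak at chr6:128225611-128225810 went the other way in both knockouts. In late ICMs it was 3.77, 4.07, 4.17 and 3.58 in Pou5f1 Ctrl and 4.59, 5.71, 5.47 and 5.78 in Pou5f1-KO, and 4.24, 2.55, 3.22 and 4.11 in Sox2 Ctrl and 5.55, 5.46, 5.19 and 4.74 in Sox2-KO. All knockout libraries lay above all controls of their line. It was higher by 1.49 (SE 0.36, adjusted p = 0.00106) and 1.70 (SE 0.36, adjusted p = 0.0003), and the knockouts differed by -0.22 (SE 0.50, adjusted p = 0.915). A neighbouring peak at chr6:128225181-128225380 was higher by 1.33 (SE 0.45, adjusted p = 0.0269) and 1.44 (SE 0.45, adjusted p = 0.0308). These latter calls were each lost without 1 of 5 libraries. In the Pou5f1 line they were Ctrl late ICM 1 (1.03, 0.134) and 4 (1.20, 0.0842) and KO late ICM 2 (1.27, 0.061), 3 (1.14, 0.103) and 4 (1.30, 0.0569). In the Sox2 line they were Ctrl late ICM 2 (1.13, 0.171) and 4 (1.23, 0.126) and KO late ICM 1 (1.40, 0.0706), 2 (1.37, 0.0825) and 4 (1.47, 0.0518).

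The other intronic Tead4 peaks chosen by rule were called higher in Pou5f1 Ctrl early ICMs than in late morulae, but not at that step in Pou5f1-KO. At chr6:128237587-128237786 the step was 2.28 (SE 0.44, adjusted p = 3.61e-05) in Pou5f1 Ctrl and -0.27 (SE 0.44, adjusted p = 0.719) in Pou5f1-KO. The values were 0.56, 1.17 and 1.80 in Pou5f1 Ctrl late morulae, 2.81, 3.90, 3.40 and 3.71 in early ICMs and 0.98, 1.27, 1.49 and 0.95 in Pou5f1-KO early ICMs. The knockout early ICMs lay within the range of the control late morulae and below all control early ICMs. The knockout difference was -2.28 (SE 0.41, adjusted p = 1.95e-05) in early ICMs, 0.26 (SE 0.47, adjusted p = 0.964) in late morulae and -0.63 (SE 0.41, adjusted p = 0.304) in late ICMs. The peak was chosen for its step in Pou5f1 Ctrl, and the early ICM difference shares those control libraries and is a description, whereas the late ICM difference, with other controls, was not called. At chr6:128254604-128254803 the step was 1.34 (SE 0.51, adjusted p = 0.0351) in Pou5f1 Ctrl and 0.26 (SE 0.51, adjusted p = 0.763) in Pou5f1-KO. The first call was lost without Pou5f1 Ctrl late morula 1 (1.17, 0.138), 2 (1.38, 0.0673) or 3 (1.47, 0.0533) or Pou5f1 Ctrl early ICM 1 (1.33, 0.0549) or 4 (1.23, 0.0833). The knockout difference at this peak was called in late ICMs, with 1.83, 3.86, 3.85 and 3.42 in Pou5f1 Ctrl and 0.69, 2.25, 1.05 and 0.45 in Pou5f1-KO. There 1 control library overlapped the knockout, and the difference was -2.13 (SE 0.47, adjusted p = 0.000336). The Tead4 start site was called in no knockout, with differences from -0.46 to 0.06 over the 6 comparisons.

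The first of these peaks was the single member at which the Pou5f1-KO difference itself changed between late morula and early ICM, by -2.54 (SE 0.62, adjusted p = 0.0362), beside 0.291% of all peaks lower and 0.0551% higher in that test. That test, too, shares the control libraries for which the peak was chosen. The call was lost in a fit to only the groups compared (-2.54, adjusted p = 0.0569) and without Pou5f1 Ctrl late morula 1 (-2.24, adjusted p = 0.167) or 2 (-2.54, 0.0769), Pou5f1-KO late morula 1 (-2.65, 0.057), 2 (-2.28, 0.133) or 3 (-2.70, 0.0661), Pou5f1 Ctrl early ICM 2 (-2.40, 0.0846) or 4 (-2.46, 0.0731), or Pou5f1-KO early ICM 1 (-2.48, 0.0535) or 4 (-2.47, 0.0592). Between early and late ICM no member's Pou5f1-KO difference was called as changed, as for all peaks (0% lower and 0% higher), with 19 members (13.2%) and 7.96% of all peaks at an unadjusted p under 0.05.

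Cdx2, the caudal homeobox factor that trophectoderm needs, lost accessibility inside the gene in Pou5f1-KO ICMs. Of its 13 peaks 3 were lower and none higher in early ICMs (23.1%, beside 5.43% of all peaks lower), and 4 were lower and 1 higher in late ICMs (30.8% and 7.69%, beside 10.1% and 8.19%). In Sox2-KO none was called in early ICMs and 1 was higher in late ICMs (7.69%, beside 2.71%). The intronic peak 2232 bp past the 5′ end was 3.33, 3.72, 2.91 and 3.64 in Pou5f1 Ctrl early ICMs and 1.66, 2.54, 1.25 and 1.61 in Pou5f1-KO. Late ICMs held 4.20, 3.82, 4.03 and 4.30 against 2.11, 1.92, 2.24 and 2.01. At both stages all knockout libraries lay below all controls, by -1.64 (SE 0.42, adjusted p = 0.00444) and -2.02 (SE 0.42, adjusted p = 0.00012). The peak was chosen for its late ICM difference, so its late ICM values are a description. In late morulae it was 0.68, 2.10 and 2.54 in Pou5f1 Ctrl and 1.72, 1.48 and 2.13 in Pou5f1-KO, overlapping, and 1.62 lower than in Pou5f1 Ctrl early ICMs (SE 0.45, adjusted p = 0.0036). Without Pou5f1 Ctrl late morula 1 that step was 1.08 (adjusted p = 0.112). In Sox2-KO the peak differed by -0.31 (SE 0.42, adjusted p = 0.854) in early and -0.43 (SE 0.42, adjusted p = 0.664) in late ICMs, not called. The Pou5f1-KO minus Sox2-KO difference there, -1.33 (SE 0.59, adjusted p = 0.328) in early and -1.59 (SE 0.59, adjusted p = 0.194) in late ICMs, was not called either, so the knockouts were not shown to differ at this peak.

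A pair of other Cdx2 peaks is described because the knockouts differed at them, a choice made after their values were seen. The second intronic peak, 2750 bp past the 5′ end, was 3.60, 4.30, 1.72 and 4.17 in Pou5f1 Ctrl early ICMs and 1.05, 0.84, 2.29 and 1.01 in Pou5f1-KO, overlapping through Ctrl 3 and KO 3. In late ICMs it was 2.97, 3.72, 3.61 and 3.76 against 1.09, 2.11, 0.95 and 1.94, without overlap. The differences were -2.15 (SE 0.44, adjusted p = 0.000241) and -1.99 (SE 0.44, adjusted p = 0.00037). In late ICMs of the Sox2 line it was 2.93, 3.73, 3.33 and 3.50 in Ctrl and 4.10, 3.86, 3.34 and 3.81 in Sox2-KO, overlapping, with a difference of 0.40 (SE 0.44, adjusted p = 0.711). The Sox2-KO difference in early ICMs was 0.42 (SE 0.44, adjusted p = 0.796).

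The peak 6219 bp before the Cdx2 5′ end was 5.39, 5.67, 5.41 and 4.19 in Pou5f1 Ctrl early ICMs and 3.33, 3.43, 3.65 and 2.84 in Pou5f1-KO, without overlap, a difference of -1.85 (SE 0.30, adjusted p = 1.82e-06). In Sox2 early ICMs it was 5.30, 5.26, 5.53 and 5.38 in Ctrl and 5.98, 6.10, 5.59 and 5.29 in KO, a difference of 0.37 (SE 0.30, adjusted p = 0.699). Knockout libraries lay below the controls in the first line and mostly above them in the second. In Pou5f1-KO late ICMs the difference was -0.80 (SE 0.30, adjusted p = 0.0481), which was lost in a fit to only the groups compared (-0.80, 0.0776), after quantile normalization (-0.74, 0.0646) and without Pou5f1 Ctrl late ICM 2 (-0.75, 0.104), 3 (-0.64, 0.188) or 4 (-0.84, 0.0646) or Pou5f1-KO late ICM 1 (-0.76, 0.0969), 3 (-0.66, 0.163) or 4 (-0.76, 0.102).

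A direct test of Pou5f1-KO against Sox2-KO differences called 2 members lower and none higher in early ICMs, beside 0.372% and 0.308% of all peaks, and 1 lower and none higher in late ICMs, beside 0.554% and 0.351%. All were at Cdx2. The count of 2 was 1 in a fit to only the groups compared, 3 after quantile normalization and 5 among peaks no weaker than the median rlog, and that of 1 was 4, 0 and 2. The control early ICMs of the lines stood apart at the 7 epiblast start sites, with means of 4.97 to 5.12 in Pou5f1 Ctrl and 4.19 to 4.74 in Sox2 Ctrl, and the part of this in the early ICM test was not tested. The peak upstream of the gene differed by -2.23 (SE 0.42, adjusted p = 0.00126) in early ICMs and by -1.43 (SE 0.42, adjusted p = 0.0738) in late ICMs. The second intronic peak differed by -2.57 (SE 0.62, adjusted p = 0.0221) and -2.40 (SE 0.62, adjusted p = 0.0329). Its early ICM call was lost in a fit to only the groups compared (-2.57, 0.0711) and without Pou5f1 Ctrl early ICM 2 (-2.29, 0.0897) or 4 (-2.33, 0.0609), Pou5f1-KO early ICM 4 (-2.48, 0.0516), Sox2 Ctrl early ICM 2 (-2.26, 0.08) or Sox2-KO early ICM 2 (-2.38, 0.0585). Its late ICM call was lost after quantile normalization (-2.25, 0.0543) and without Pou5f1 Ctrl late ICM 2 (-2.33, 0.0617), 3 (-2.37, 0.0624) or 4 (-2.31, 0.076), Pou5f1-KO late ICM 1 (-2.25, 0.075) or 3 (-2.20, 0.0813), Sox2 Ctrl late ICM 1 (-2.25, 0.0748), or Sox2-KO late ICM 1 (-2.29, 0.0702) or 2 (-2.37, 0.0658). The count of 2 in early ICMs was 5 without Sox2-KO early ICM 4, and that of 1 in late ICMs was 3 without Pou5f1 Ctrl late ICM 1 and 2 without Pou5f1-KO late ICM 2 or 4 or Sox2-KO late ICM 3.

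The Cdx2 start site moved otherwise than the peaks inside the gene. It was 5.76, 5.61 and 5.42 in Pou5f1 Ctrl late morulae and 4.34, 4.99, 4.86 and 2.98 in early ICMs, lower in each, by -1.30 (SE 0.34, adjusted p = 0.00178). In Pou5f1-KO late ICMs it was 5.17, 4.42, 4.55 and 4.70, overlapping the 4.99, 4.76, 4.98 and 4.97 of the controls, at -0.21 (SE 0.31, adjusted p = 0.7). In Sox2-KO late ICMs it was 5.54, 5.88, 5.45 and 5.68 against 4.84, 5.15, 4.60 and 4.04 in Sox2 Ctrl. These groups did not overlap, and the difference was 0.98 (SE 0.31, adjusted p = 0.0335). The call was lost after quantile normalization (0.83, 0.0858) and without Sox2-KO late ICM 1 (1.01, 0.0558), 2 (0.90, 0.109) or 4 (0.96, 0.0717) or Sox2 Ctrl late ICM 3 (0.96, 0.0688) or 4 (0.77, 0.178).

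**Figure D2:**
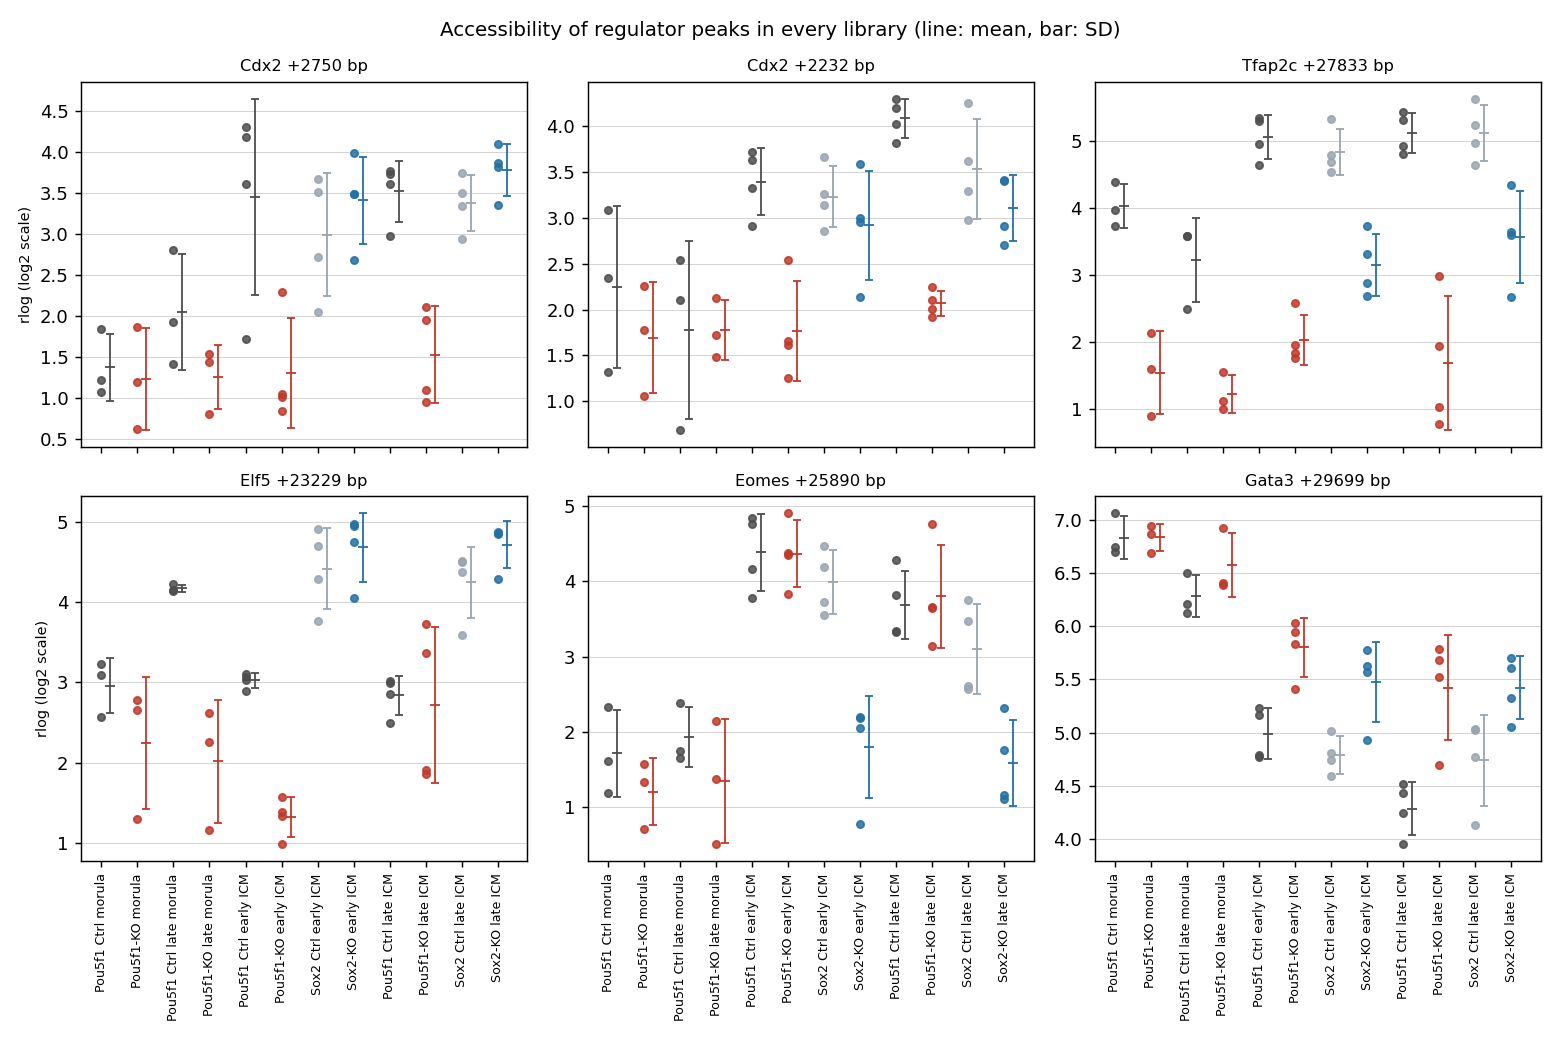
rlog (log2 scale) of 2 Cdx2 peaks and 1 peak each of Tfap2c, Elf5, Eomes and Gata3 in each of the 44 libraries, with 1 point for each library, groups along the horizontal axis, a line for the group mean and a bar for the SD. The distal Tfap2c peak lies lower in every knockout group than in its controls, and the Cdx2 intronic peak at 2232 bp lies at 1.25 to 2.54 in Pou5f1-KO early ICMs, below its controls, while neither Sox2-KO ICM group differed from its controls by a called amount at the Cdx2 intronic peaks.

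Gata3, the GATA factor induced beside Cdx2, had 1 of 18 peaks (5.56%) called in Pou5f1-KO ICMs of either stage, the intronic peak 29699 bp past the 5′ end, which was higher. The share of all peaks higher was 2.753% in early ICMs and 8.19% in late ICMs. It was 6.21, 6.13 and 6.51 in Pou5f1 Ctrl late morulae, 4.79, 5.23, 4.77 and 5.17 in early ICMs and 4.52, 3.95, 4.25 and 4.43 in late ICMs. In Pou5f1-KO it was 6.39, 6.41 and 6.92, then 6.03, 5.41, 5.83 and 5.95, then 5.68, 4.70, 5.53 and 5.78. Knockout ICMs lay between control ICMs and late morulae, above all controls of their stage. It was higher by 0.81 (SE 0.25, adjusted p = 0.0265) in early ICMs and by 1.14 (SE 0.25, adjusted p = 0.000381) in late ICMs, while the step from late morula was -1.29 (SE 0.27, adjusted p = 0.000141) in Pou5f1 Ctrl. The peak was chosen both for this step and for its late ICM difference, and the early ICM difference shares control libraries with the step, so these values are a description. The early ICM call was lost in a fit to only the groups compared (0.81, 0.0652) and without Pou5f1 Ctrl early ICM 1 (0.75, 0.0786) or 3 (0.74, 0.0829) or Pou5f1-KO early ICM 1 (0.74, 0.0825), 3 (0.80, 0.0586) or 4 (0.77, 0.0743). In Sox2-KO the differences were 0.69 (SE 0.25, adjusted p = 0.167) and 0.68 (SE 0.25, adjusted p = 0.0813), not called.

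The peak nearest to the annotated 5′ end of Gata3, centred 507 bp past it, lies 13 bp from the start of 9230102O04Rik and was called in no comparison of a knockout, with differences of at most 0.37 in size. A start site inside the gene, 11474 bp past the 5′ end and added after its values were seen, was higher in Sox2-KO late ICMs. It was 4.91, 4.83, 3.246 and 2.99 in Sox2 Ctrl and 5.33, 5.55, 5.07 and 5.00 in Sox2-KO, without overlap and with controls 3 and 4 far below 1 and 2. The difference was 1.24 (SE 0.33, adjusted p = 0.0068), and it was lost without Sox2 Ctrl late ICM 3 (0.99, 0.0685) or 4 (0.91, 0.107). In Pou5f1-KO late ICMs it was 0.84 (SE 0.33, adjusted p = 0.0593).

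Eomes, the T-box factor of the trophoblast progenitors, held the member with the largest loss called in Sox2-KO. The peak 25890 bp past its 5′ end lies 2165 bp from the start of Golga4, so it is not assigned to 1 gene here. In early ICMs it was 3.73, 4.47, 3.56 and 4.19 in Sox2 Ctrl and 2.19, 2.05, 0.78 and 2.18 in Sox2-KO, and 4.76, 4.16, 3.78 and 4.85 in Pou5f1 Ctrl and 3.83, 4.38, 4.36 and 4.91 in Pou5f1-KO. Groups were apart in the Sox2 line and overlapped in the Pou5f1 line. The differences were -2.19 (SE 0.42, adjusted p = 0.000206) and -0.02 (SE 0.42, adjusted p = 0.99), and the difference between them, 2.17 (SE 0.59, adjusted p = 0.0536), was not called. In late ICMs the peak was 2.57, 2.61, 3.754 and 3.47 in Sox2 Ctrl and 2.32, 1.16, 1.76 and 1.10 in Sox2-KO, without overlap, at -1.52 (SE 0.42, adjusted p = 0.0107), beside 0.11 (SE 0.42, adjusted p = 0.9) in Pou5f1-KO. That call was lost without Sox2-KO late ICM 2 (-1.37, 0.0519) or 4 (-1.36, 0.0519) or Sox2 Ctrl late ICM 3 (-1.30, 0.0652).

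The same Eomes peak opened at the step into the ICM, from 1.75, 1.65 and 2.38 in Pou5f1 Ctrl late morulae, by 2.46 (SE 0.45, adjusted p = 1.5e-05). In Pou5f1-KO it rose by 3.02 (SE 0.45, adjusted p = 6.81e-07), so the step was called in both genotypes. Of the 15 Eomes peaks, 1 was lower and none higher in Sox2-KO ICMs of each stage (6.67%, beside 1.91% and 4.88% of all peaks lower). In Pou5f1-KO none was called in early ICMs, and 2 were higher and none lower in late ICMs (13.3%, beside 8.19% of all peaks higher). Of these 2, a peak 18016 bp past the Eomes 5′ end was at 4.53, 3.86, 4.41 and 3.68 in Ctrl late ICMs and 4.99, 5.62, 5.01 and 5.33 in KO, without overlap. Its difference of 1.12 (SE 0.38, adjusted p = 0.0289) was lost without Pou5f1 Ctrl late ICM 2 (1.03, 0.0809) or 4 (0.97, 0.104) or Pou5f1-KO late ICM 2 (0.99, 0.0926) or 4 (1.09, 0.0637). The Eomes start site was called in no knockout, with differences from -0.60 to 0.42.

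Elf5, the ETS factor of trophoblast stem cells, had no peak within 500 bp of its 5′ end. The intronic peak 23229 bp past it was lower in Pou5f1-KO late morulae, with 4.15, 4.22 and 4.14 in Pou5f1 Ctrl and 2.62, 1.16 and 2.26 in KO. In early ICMs it was 3.07, 3.11, 2.89 and 3.02 against 1.38, 1.58, 0.98 and 1.34. Neither pair of groups overlapped, and the control libraries were tightly spaced. The differences were -2.16 (SE 0.45, adjusted p = 0.00378) and -1.70 (SE 0.39, adjusted p = 0.00134). The first was lost without Pou5f1-KO late morula 2 (-1.73, adjusted p = 0.125). In late ICMs the knockout was divided, at 1.91, 3.37, 3.73 and 1.86 against 3.00, 3.01, 2.49 and 2.86, with a difference of -0.12 (SE 0.39, adjusted p = 0.88). In late ICMs of the Sox2 line the 4 Ctrl libraries lay between 3.59 and 4.51 and the 4 KO libraries between 4.28 and 4.87, a difference of 0.47 (SE 0.39, adjusted p = 0.586), and all Sox2 Ctrl libraries lay above all Pou5f1 Ctrl libraries.

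Of the 18 Elf5 peaks, 1 was lower and 1 higher in Pou5f1-KO early ICMs (5.56% each, beside 5.43% and 2.753% of all peaks). In late ICMs none was lower and 2 were higher (11.1%, beside 8.19% of all peaks higher). In Sox2-KO none was called in early ICMs and 1 was higher in late ICMs (5.56%, beside 2.71%). Of the peaks higher in Pou5f1-KO, 2 are described here, each called at 1 stage. The peak 48065 bp past the 5′ end lies beyond the gene, in a window that also overlaps the gene Cat. It is therefore not assigned to 1 gene here. It was 1.95, 1.75, 2.47 and 1.35 in Pou5f1 Ctrl early ICMs and 3.20, 3.73, 4.03 and 3.13 in KO, all higher, by 1.64 (SE 0.40, adjusted p = 0.00267). It had been 4.21, 4.40 and 3.84 in Pou5f1 Ctrl late morulae, and its step into the early ICM was -2.27 (SE 0.43, adjusted p = 2.59e-05). The peak was chosen for this step, whose control early ICM libraries the knockout difference shares, so that difference is a description. In late ICMs, with other controls, the knockout difference was 0.51 (SE 0.40, adjusted p = 0.422), not called. The intronic peak at 24612 bp was 5.09, 4.27, 4.69 and 5.12 in Pou5f1 Ctrl late ICMs and 5.44, 6.04, 5.80 and 6.04 in KO, without overlap, higher by 1.04 (SE 0.27, adjusted p = 0.00296). Sox2-KO differed from its control by 0.27 (SE 0.27, adjusted p = 0.683) there.

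At the keratin loci, calls in knockout late ICMs were higher and none was lower. In Pou5f1-KO late ICMs 6 of 14 Krt18 peaks (42.9%) were higher, beside 8.19% of all peaks, and 2 of 19 Krt8 peaks (10.5%), near the share of all peaks, with 1 peak shared. The medians were 0.56 at Krt8 and 0.86 at Krt18, beside -0.04 over all peaks. Sox2-KO late ICMs had 1 of 19 Krt8 peaks (5.26%) and 2 of 14 Krt18 peaks (14.3%) higher, beside 2.71% of all peaks, with medians of 0.61 and 0.65 beside 0.01. In early ICMs of Pou5f1-KO 1 of 14 Krt18 peaks (7.14%) was higher and no Krt8 peak was called, beside 2.753% higher and 5.43% lower of all peaks. In Sox2-KO early ICMs 1 of 19 Krt8 peaks (5.26%) was higher and no Krt18 peak was called, beside 0.238% and 1.91%.

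Upstream of Krt18 2 adjacent peaks were called higher in both knockouts. The peak 2395 bp before the 5′ end was 3.18, 3.58, 3.80 and 4.02 in Pou5f1 Ctrl late ICMs and 4.92, 5.10, 4.53 and 5.11 in Pou5f1-KO, and 3.49, 3.43, 4.14 and 3.60 in Sox2 Ctrl and 4.68, 5.24, 5.34 and 4.94 in Sox2-KO. All knockout libraries lay above all controls of their line, by 1.27 (SE 0.33, adjusted p = 0.00317) and 1.38 (SE 0.33, adjusted p = 0.00248). In Pou5f1-KO early ICMs it was 4.84, 4.72, 4.84 and 4.48 against 3.39, 3.26, 4.02 and 4.30, and the difference of 0.98 (SE 0.33, adjusted p = 0.0495) was lost on leaving out any 1 of 7 of these 8 libraries, with values of 0.82 to 1.07 and adjusted p of 0.0506 to 0.191, the exception being Pou5f1 Ctrl early ICM 4, and in a fit to only the groups compared (0.98, 0.0777). In Pou5f1 Ctrl late morulae the peak was at 4.38, 4.79 and 4.22.

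The adjacent peak, 2902 bp before the Krt18 5′ end, was 3.24, 2.81, 3.18 and 3.29 in Pou5f1 Ctrl late ICMs and 4.28, 4.88, 5.80 and 5.20 in Pou5f1-KO. In Sox2 late ICMs it was 2.749, 3.98, 3.64 and 3.19 in Ctrl and 4.96, 5.05, 4.31 and 4.26 in KO. Neither pair of groups overlapped, and the differences were 1.91 (SE 0.42, adjusted p = 0.000332) and 1.25 (SE 0.42, adjusted p = 0.0474). The Sox2-KO call was lost after quantile normalization (1.17, 0.0725), in a test restricted to peaks no weaker than the median rlog (1.25, 0.056) and without Sox2 Ctrl late ICM 1 (1.04, 0.191), 3 (1.34, 0.0569) or 4 (1.19, 0.111) or Sox2-KO late ICM 1 (1.15, 0.131), 2 (1.12, 0.151) or 3 (1.37, 0.0564). From Pou5f1 Ctrl late morula to early ICM it fell by 1.51 (SE 0.45, adjusted p = 0.00748).

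Between the genes, the shared peak was 5.29, 5.56 and 5.31 in Pou5f1 Ctrl morulae, 6.35, 6.71 and 6.38 in late morulae and 5.39, 4.41, 5.64 and 4.49 in early ICMs. It rose by 1.09 (SE 0.29, adjusted p = 0.0116) and then fell by 1.495 (SE 0.27, adjusted p = 1.27e-05). From late morula to early ICM in Pou5f1-KO it fell by 1.40 (SE 0.27, adjusted p = 0.000104). Late ICMs held 5.68, 5.51, 4.71 and 5.33 in Pou5f1 Ctrl and 6.28, 6.05, 5.91 and 6.33 in Pou5f1-KO, all higher, by 0.84 (SE 0.25, adjusted p = 0.0113). The late ICM call was lost without Pou5f1 Ctrl late ICM 3 (0.64, adjusted p = 0.0993), and the morula call without Pou5f1 Ctrl late morula 2 (0.98, adjusted p = 0.0701). Its Sox2-KO difference in late ICMs was 0.73 (SE 0.25, adjusted p = 0.0572).

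Downstream of Krt8, the peak at chr15:101995875-101996074 was 5.72, 5.03 and 4.94 in Pou5f1 Ctrl late morulae and 2.56, 2.09, 4.38 and 2.46 in early ICMs, a step of -2.36 (SE 0.43, adjusted p = 1.29e-05). Pou5f1-KO took the same step by -2.39 (SE 0.43, adjusted p = 2.98e-05). In late ICMs it was 2.65, 2.93, 2.53 and 1.98 in Pou5f1 Ctrl and 4.55, 3.62, 4.06 and 3.63 in KO, all higher but below every late morula library, by 1.44 (SE 0.40, adjusted p = 0.00517). Its Sox2-KO difference in late ICMs was 0.81 (SE 0.40, adjusted p = 0.242).

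The Krt18 start site was 4.57, 4.43, 4.43 and 3.42 in Pou5f1 Ctrl late ICMs and 5.16, 5.25, 4.97 and 5.54 in KO, higher by 1.02 (SE 0.33, adjusted p = 0.0174). The call was lost without Pou5f1 Ctrl late ICM 4 (0.75, adjusted p = 0.136) or Pou5f1-KO late ICM 4 (0.91, 0.0654). The Krt8 start site was 3.84, 5.01, 4.82 and 4.84 against 5.68, 5.62, 5.03 and 5.12, all higher, at 0.74 (SE 0.28, adjusted p = 0.0535), which misses the threshold. The Sox2-KO differences in late ICMs were 0.37 (SE 0.33, adjusted p = 0.611) for Krt18 and 0.61 (SE 0.28, adjusted p = 0.203) for Krt8. Of the 7 peaks nearest to the 5′ ends of the genes, that of Gata3 at 9230102O04Rik included, 1 was called higher in Pou5f1-KO late ICMs (Krt18), beside 8.19% of all peaks, and 1 in Sox2-KO late ICMs (Cdx2), beside 2.71%.

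**Figure D3:**
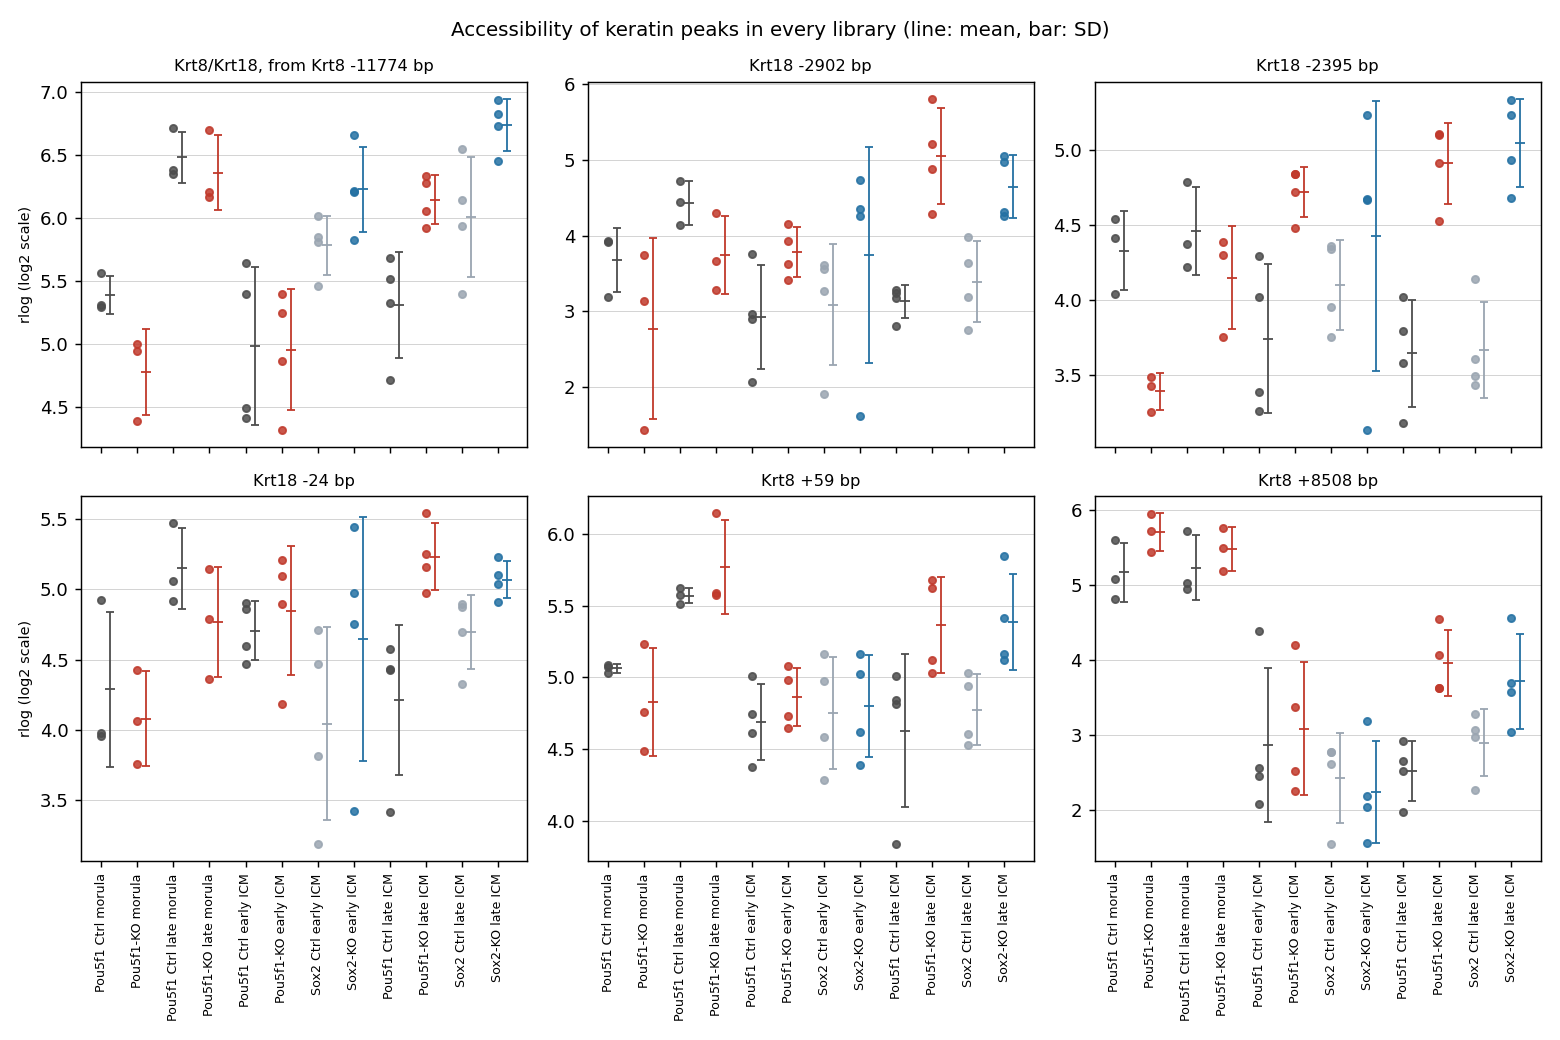
rlog (log2 scale) of 6 peaks at Krt8 and Krt18 in each of the 44 libraries, with 1 point for each library, groups along the horizontal axis, a line for the group mean and a bar for the SD. The peak downstream of Krt8 is at 4.82 or above in all morula and late morula libraries and at 1.98 to 2.93 in Pou5f1 Ctrl late ICMs, with Pou5f1-KO late ICMs between them at 3.62 to 4.55.

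The late ICM comparisons share no library with the step from Pou5f1 Ctrl late morula to early ICM, so the step's direction could be set beside them. Of the 24 members higher at that step, 20 (83.3%) were negative and 8 (33.3%) called lower in Pou5f1-KO late ICMs, none was called higher, and the median was -0.68. Over all 22384 peaks higher at the step 80.2% were negative, 36.1% called lower and 1.95% called higher, and the median was -0.72. In Sox2-KO late ICMs 14 of the 24 members (58.3%) were negative, 3 (12.5%) were called lower and none higher, with a median of -0.36, beside 67.5%, 19.9%, 1.23% and -0.33 over all such peaks. Of the 25 members lower at the step, 19 (76%) were positive in Pou5f1-KO late ICMs, 7 (28%) were called higher and 1 (4%) lower, with a median of 0.71. Over all 22839 peaks lower at the step 76% were positive, 19.2% called higher and 0.652% called lower, and the median was 0.46. In Sox2-KO late ICMs 24 of the 25 members (96%) were positive, 5 (20%) were called higher and none lower, with a median of 0.67, beside 64.5%, 5.56%, 0.32% and 0.21 over all such peaks. Opposite signs of step and knockout were thus also the more common over all peaks called at the step. These are counts over peaks of few loci, which are not independent, and carry no test.

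**Figure D4:**
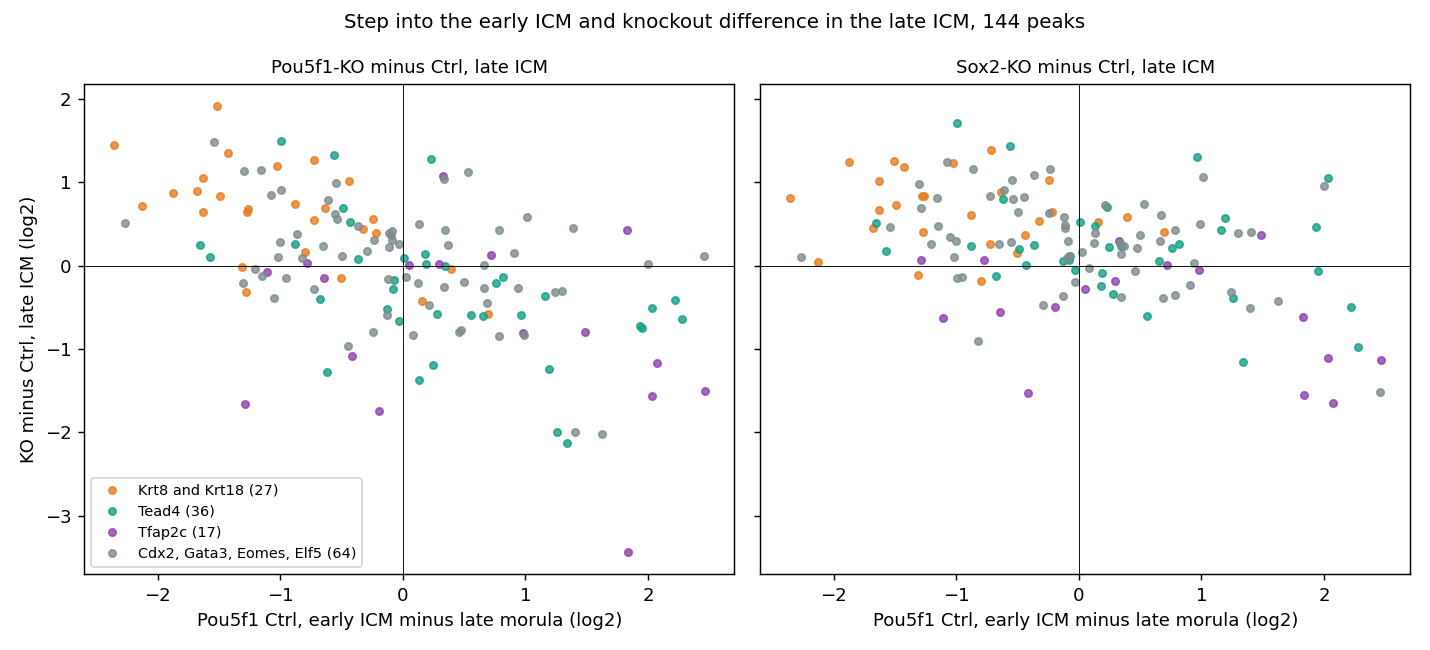
Difference of each of the 144 peaks between Pou5f1 Ctrl early ICM and late morula (horizontal, log2) against its knockout minus Ctrl difference in late ICMs (vertical, log2), for Pou5f1-KO and Sox2-KO, with Krt8 and Krt18 in orange, Tead4 in green, Tfap2c in purple and the other loci in grey. The 24 peaks higher at the step lie mostly below 0 in Pou5f1-KO (20 of 24), and of the 25 lower at the step 24 lie above 0 in Sox2-KO. Over all peaks called at the step these shares were 80.2% and 64.5%.

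The late ICM calls of the knockouts were partly shared. Of 16 members lower in Pou5f1-KO and 4 in Sox2-KO, 2 were in both (12.5% and 50% of each list), both at Tfap2c, beside 33.9% and 70.2% for the lists over all peaks. Of 16 higher in Pou5f1-KO and 8 in Sox2-KO, 4 were in both (25% and 50%), 2 at Tead4 and 2 at Krt18, beside 12.4% and 37.5% over all peaks. Between stages of Pou5f1-KO, 8 members were lower in both early and late ICMs, which is 66.7% of the early and 50% of the late list, beside 74.2% and 39.8% over all peaks. All 9 words were counted in the 16 members higher and the 16 lower in Pou5f1-KO late ICMs. The GATA word was in 7 and 1, TEAD in 5 and 2, TFAP2 in 4 and 3, KLF in 4 and 4, SOX in 2 and 3, CDX in none and 2, the composite word in none and 2, and OCT and T-box in none of either. At the control step into the early ICM the GATA word was in 3 of the 24 members higher (12.5%) and 3 of the 25 lower (12%). These word counts are untested descriptions of few windows.

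A list of 20 other trophectoderm genes gave 508 peaks by the same rule. From Pou5f1 Ctrl morula to late morula 6 were lower and 38 higher (1.18% and 7.48%, beside 2.79% and 3.65% of all peaks), and from late morula to early ICM 78 lower and 70 higher (15.4% and 13.8%, beside 15% and 14.7%). In Pou5f1-KO morulae 4 were lower and none higher (0.787%, beside 0.185% lower of all peaks), and in late morulae 2 and 1 (0.394% and 0.197%, beside 0.539% and 0.108%). In Pou5f1-KO early ICMs 19 were lower and 21 higher (3.74% and 4.13%, beside 5.43% and 2.753%). In Pou5f1-KO late ICMs 23 were lower and 70 higher (4.53% and 13.8%, beside 10.1% and 8.19%). In Sox2-KO early ICMs 4 were lower and 3 higher (0.787% and 0.591%, beside 1.91% and 0.238%), and in late ICMs 11 and 48 (2.17% and 9.45%, beside 4.88% and 2.71%). In late ICMs of both knockouts the list had more higher than lower calls, where all peaks had more lower than higher. The 8 loci had 8 higher and 4 lower in Sox2-KO and 16 of each in Pou5f1-KO.

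Over the 12 group means of the mean rlog of each locus, Krt8 and Krt18, which share 6 peaks, had a Pearson r of 0.91. Cdx2 had an r of 0.77 with Elf5 and of 0.74 with Tead4, and Gata3 had an r of -0.51 with Tfap2c. Cdx2 had a locus mean of 2.89 ± 0.28 (SD, n = 4) in Pou5f1-KO early ICMs, its lowest, and of 3.97 ± 0.15 (SD, n = 4) in Sox2-KO late ICMs, its highest. Gata3 ranged only from 2.89 ± 0.07 (SD, n = 4) in Sox2 Ctrl late ICMs to 3.29 ± 0.08 (SD, n = 4) in Sox2-KO early ICMs. Among 15657 protein-coding genes with at least 4 peaks, those whose locus means were most like those of Cdx2 were Shld2 (r = 0.975), Clk1 (0.947) and Srp14 (0.944), and those most like Gata3 were Pnma1 (0.877), Lfng (0.827) and Cops4 (0.820). These correlations are over 12 groups that share stages and lines and are given as a description.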

How the data were processed

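ATAC-seq libraries of pooled embryos were aligned with Bowtie2, stripped of duplicates with Picard and called for peaks with MACS2 by the authors, per the labels and the methods, on mm10. The deposited table of 152393 peaks holds rlog values, a regularised log2 transform of insertion counts that the authors made with DESeq2 over the 44 libraries. A second deposited table with the group means of these log2 values was not used. Counts and depth per library are not given in the sources used here, so no counting interval could be set, and the number of libraries limits the precision. Every column was mapped to a sample.

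The members are peaks with at least 1 base in the gene body or its 20 kb flanks (GENCODE vM21, whereas the study used a later release). The loci, the lists and the tests were chosen with earlier results of these data known. Peaks described singly were, for each gene, the peak nearest to the 5′ end (its closer edge within 500 bp, whereas printed distances are from the peak centre) and those with the lowest adjusted p for the Pou5f1-KO difference in late ICMs and for the control step from late morula to early ICM. Members called in Pou5f1-KO morula or late morula, or in both late ICM knockouts, were added. For a peak chosen by its result in a comparison, the size and separation in that comparison follow in part from the choice and are a description. By this rule 26 peaks were taken, and 3 more were added after their values were seen, 2 at Cdx2 and the inner Gata3 start site.

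limma 3.58.1 (R 4.3.3) was fitted to all peaks with 1 mean for each of the 12 groups and a mean-variance trend, with 32 residual degrees of freedom. The median residual SD was 0.59. Adjusted p-values are Benjamini-Hochberg over all peaks, two-sided. The fit was also run on simulated data for the Pou5f1-KO late ICM comparison, built from its own means and residual SDs. The noise was independent between libraries, and the outcome is not reported here. Sequences were read from GRCm38.p6 (RefSeq), and tables were handled with Python 3.11.15, numpy 2.4.6 and pandas 2.3.3.

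Alternatives were a fit to the compared groups alone, quantile normalization, a test restricted to peaks no weaker than the median rlog, an absolute log2 difference of at least 1, a replicate block, and leaving out each library in turn. Replicate numbers deviated together, every pair correlating above 0.1, in the Pou5f1 late morula (0.109 to 0.192, 3 pairs) and early ICM (0.121 to 0.162, 4 pairs), so there the numbers were taken to pair the samples. At the other stages they were not, since some pairs lay below 0.1, a limit set by choice. In Sox2 early ICMs 3 of 4 pairs lay above 0.1 (0.086 to 0.293), and whether the numbers pair samples there was not tested. The counts were 2 of 3 in Pou5f1 morulae (0.048 to 0.153), 1 of 4 in Pou5f1 late ICMs (0.017 to 0.164) and 0 of 4 in Sox2 late ICMs (-0.025 to 0.090). The main fit used no pairing at any stage.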

Additional observations from a re-analysis of the deposited data

Results flagged for a closer look

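In 232 groups of 4 libraries at the peaks described singly, 16 held a library far from the other 3 by Dixon's test at the 95% level, where chance gives about 1 in 20 groups. At Cdx2, Pou5f1-KO early ICM 3 was at 2.29 at the intronic peak 2750 bp past the 5′ end, where the others lay at 0.84 to 1.05, and Pou5f1 Ctrl late ICM 2 was at 4.76 at the start site, where the others lay at 4.97 to 4.99. At the Eomes peak at 18016 bp, Pou5f1-KO early ICM 1 was at 3.92 (others 5.05 to 5.26) and Sox2-KO early ICM 2 at 3.07 (others 3.57 to 3.63). At the Eomes peak at 25890 bp, Sox2-KO early ICM 3 was at 0.78 (others 2.05 to 2.19), the lowest of a group already below its control.

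The Elf5 peak at 23229 bp was at 3.59 in Sox2 Ctrl late ICM 2 (others 4.38 to 4.51) and at 4.28 in Sox2-KO late ICM 1 (others 4.85 to 4.87). At Tead4, Pou5f1-KO early ICM 4 was at 3.38 at the peak starting at 128225611 (others 4.53 to 4.70), Pou5f1 Ctrl late ICM 2 at 2.64 at 128237587 (others 3.12 to 3.18), Pou5f1-KO early ICM 2 at 0.49 at 128254604 (others 1.57 to 1.66), and Pou5f1 Ctrl late ICM 1 at 4.45 at 128280803 (others 5.67 to 5.80). The Tfap2c peak at 18474 bp was at 2.89 in Pou5f1 Ctrl early ICM 3 (others 3.84 to 3.95).

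At the keratins, Sox2 Ctrl early ICM 2 was at 1.55 at the peak downstream of Krt8 (others 2.62 to 2.78) and Pou5f1 Ctrl late ICM 1 at 3.84 at the Krt8 start site (others 4.82 to 5.01). Sox2-KO early ICM 4 was at 1.62 at the peak 2902 bp before Krt18 (others 4.26 to 4.73). Pou5f1 Ctrl late ICM 4 was at 3.42 at the Krt18 start site (others 4.43 to 4.57), and the call made there was lost without it.

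In 4 tests the effect of a knockout differed between stages or between knockouts. The Pou5f1-KO difference at the Tead4 peak starting at 128237587 was 2.54 lower in early ICMs than in late morulae (-2.54). The Pou5f1-KO difference lay below that of Sox2-KO at the Cdx2 intronic peak 2750 bp past the 5′ end, by -2.57 in early and -2.40 in late ICMs, and at the Cdx2 upstream peak by -2.23 in early ICMs.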

How the results depend on the processing

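Of 73 calls at the peaks described singly, 39 were kept under every alternative run and 34 were lost under at least 1, and none turned its direction. A fit to the compared groups alone lost 7, quantile normalization 5, the requirement of an absolute difference of 1 9 and the replicate block 1. The count of members called moved by over 1.5 times as follows. In Pou5f1-KO morulae it was 1, 0 in the compared groups alone, 2 after quantile normalization and 0 to 1 without single libraries. Without single libraries it was 1 to 3 in Pou5f1-KO late morulae, 2 to 6 in Sox2-KO early ICMs, 6 to 13 in Sox2-KO late ICMs, 5 to 9 for the Pou5f1 Ctrl step from morula to late morula, 31 to 49 for that to early ICM, 18 to 29 for the latter in Pou5f1-KO and 0 to 1 between the Sox2 Ctrl ICM stages. The change of the Pou5f1-KO effect from late morula to early ICM was called at 1 member, at 0 in the compared groups alone, 0 among peaks no weaker than the median and 0 to 1 without single libraries. Pou5f1-KO against Sox2-KO effects gave 2 in early ICMs, 1 in the compared groups alone, 5 among peaks no weaker than the median and 1 to 5 without single libraries. In late ICMs they gave 1, 4 in the compared groups alone, 0 after quantile normalization, 2 among peaks no weaker than the median and 0 to 3 without single libraries.

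With the replicate block, where the numbers were taken to pair the samples, the count went from 3 to 4 (2.78%, beside 1.12% of all peaks under the block) in Pou5f1-KO late morulae and from 15 to 20 (13.9%, beside 10.8%) in early ICMs. Where the numbers were not taken to pair the samples, the block gave 2 in Pou5f1-KO morulae (1.39%, beside 0.667% of all peaks), 41 in late ICMs (28.5%, beside 22.1%), 6 and 21 in Sox2-KO early and late ICMs (4.17% and 14.6%, beside 3.22% and 10.1%), and 5 and 7 for Pou5f1-KO against Sox2-KO effects in early and late ICMs (3.47% and 4.86%, beside 1.81% and 2.14%). The causes of these changes were not tested. The groups hold 3 or 4 pooled libraries of unknown depth.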
